A study of Mus musculus with 8 samples.

Results

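Cells of a liver allograft were compared with blood cells of liver recipients, within the same classes of immune cell. The 2 libraries held 16822 cells with at least 500 unique molecular identifiers (UMIs, each standing for 1 captured mRNA molecule), of 47542 such cells and 80000 barcodes in all 8 libraries of the series. The series is a Microwell-seq study, which captures single cells with barcoded beads in a microwell array, of mouse heart, liver and kidney allografts that were taken 7 days after transplantation. Livers of BALB/c donors had been placed in C57BL/6J recipients, males of 8 weeks, without immunosuppression. The labels give the tissue library as mouse liver solid organ and the other library as mouse liver blood. Per the study's methods, blood was collected from graft recipients. The labels name the strain BALB/c for both libraries, although the blood belongs to the recipient. Each condition was read in 1 library, the material came from 2 liver recipients, and the sources do not state how these were divided or pooled over the libraries, so no condition was tested against the other and every interval below covers counting error only.

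Cells were placed in 3 classes by a few genes. T cells held at least 2 UMIs of Cd3d, Cd3e, Cd3g and Trac together, which encode chains of the T cell receptor complex, and none of Csf1r. NK cells held at least 2 UMIs of Ncr1, Klrb1c and Klra8, which encode activating receptors of NK cells, and at most 1 UMI of the 3 Cd3 genes. Myeloid cells held a UMI of Csf1r, the receptor for macrophage colony-stimulating factor, and at most 1 UMI of the 4 T cell genes. Of 10000 liver tissue cells, 5411 were T cells, 74 NK cells and 1237 myeloid cells, and of 6822 blood cells 316, 118 and 875. T cells made up 54.1% (53.1 to 55.1, exact binomial 95% interval) of tissue cells and 4.63% (4.15 to 5.16) of blood cells, while myeloid cells made up 12.4% and 12.8%. Klra8 is encoded in C57BL/6 and not in BALB/c mice, so its UMIs can mark cells of the recipient alone.

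Lymphocytes that circulate carry Ccr7 and the sphingosine phosphate receptor S1pr1, which take them into lymph nodes and out again, and the transcription factor Klf2 helps keep these genes on. After activation they lower this set, divide, and make granzymes, perforin, interferon gamma and chemokines. The liver sinusoids house Kupffer cells, the macrophages that clear particles from portal blood, and in a graft these come with the donor organ, while monocytes of the recipient enter from blood and turn into macrophages. Mouse liver allografts are known for surviving across a full mismatch of the major histocompatibility complex (MHC) without drugs, even though T cells fill them in the first days.

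The classes were described by markers that the rules did not use. CPM are UMIs of a gene or list scaled to a library sum of 1000000. The 10 such T cell markers summed to 7629.6 CPM in tissue T cells and 5360.3 in blood T cells, against 2897 and 1407 in NK cells and 1028 and 336 in myeloid cells. The 9 NK cell markers summed to 22908 and 23566 CPM in NK cells, and to between 4549 and 8071 CPM in the other groups of cells. The 11 myeloid markers summed to 27045 and 38212 CPM in myeloid cells, 7354 and 12999 in T cells, 6738 and 16107 in NK cells and 18510.3 and 29594 in the cells outside the classes. The make-up of the cells outside the classes differed between the libraries. In these cells the 10 T cell markers summed to 3542 CPM in tissue and 634 in blood, and Csf1r stood at 496 and 7.28 CPM. Cells with Csf1r and at least 2 UMIs of the T cell genes met neither the T nor the myeloid rule. Alb, the albumin transcript of hepatocytes, stood at only 91.3 CPM in the tissue cells outside the 3 classes and lower in each class, so the parenchyma of the labelled tissue was hardly represented. Tissue cells were deeper, with a median of 1452 UMIs in T cells, 1435.5 in NK cells and 1743 in myeloid cells, against 806.5, 722 and 779 in blood. The summed UMIs were 9968282, 118737 and 2560099 in tissue, and 316958, 101630 and 877968 in blood. RNA of other cells moved with the comparison. The 15 neutrophil markers summed to between 55368 and 83922 CPM in the 3 blood classes and between 7234 and 9209 CPM in the 3 tissue classes, and the 9 erythroid markers to between 7360.0 and 9685 CPM in blood and at most 379 CPM in tissue, where Car2 alone gave this value in NK cells. Their part in the results was not tested. 10 tissue cells and 1 blood cell were in both the T and NK classes, 14 and 8 in both the NK and myeloid classes, and 198 barcodes occurred in both libraries, 145 of them with at least 500 UMIs in both.

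In each class the UMIs of a gene were summed over the cells and given as CPM with an exact 95% Poisson interval in parentheses. Genes with at least 20 UMIs in either library were compared by the log2 ratio of tissue to blood, with 1 CPM added to both, and counted when they were at least 2-fold apart. In T cells 2423 of 11068 genes, or 21.9%, were higher in tissue and 967, or 8.74%, were lower. Of the 2423, 1310 had 0 UMIs in blood T cells, and 1095 of these stood in tissue at or below what 3 counts in blood T cells would be, so that no fold can be given for them, and without these the share higher was 12%. The other counts by class, given next, held no such gene. In NK cells 115 of 1069 genes (10.8%) were higher and 105 (9.82%) lower, and in myeloid cells 1630 of 7897 genes (20.6%) were higher and 570 (7.22%) lower. The median log2 ratio over all genes compared was 0.21, 0.19 and 0.30, and these values are the level against which the gene groups below are read. Genes whose Poisson intervals were also apart numbered 546 higher and 485 lower in T cells, 64 and 84 in NK cells, and 1113 and 531 in myeloid cells. With the tissue UMIs drawn down to the depth of blood, 2758 T cell genes reached 20 UMIs in either library, of which 309 (11.2%) were higher and 259 (9.39%) lower, so the share higher was also less than with all UMIs. Among the genes called, 71.5%, 52.3% and 74.1% were higher in tissue, and 59.6%, 37.1% and 55.5% when the ratios were centred on their median.

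Genes that were apart in all 3 classes were set against their levels across the cells of a library, because RNA released from broken cells can reach every class alike. Of 1061 genes compared in all 3 classes, 31 (2.92%) were higher in tissue in each class and 56 (5.28%) were lower. Of the 56 lower genes, 46 had their highest blood level in the cells outside the 3 classes, 9 in myeloid cells and 1 in NK cells. They were led by the haemoglobin genes Hbb-bs, Hba-a2, Hba-a1 and Hbb-bt and the neutrophil genes Csf3r, Lrg1, S100a9, S100a8 and Cxcr2. Hbb-bs stood at 4429.6 CPM in blood T cells, 4309.8 in NK cells, 5491 in myeloid cells and 8473 in the other blood cells. S100a8, a calcium-binding protein of neutrophils, followed the same order at 31105, 28368, 42077 and 63563 CPM. Over the genes of each marker list with enough counts, the median level in blood T cells was 48.3% of that in the other cells for erythroid genes, 47.7% for neutrophil genes, 48.2% for B cell genes and 48.5% for plasma cell genes. Single genes ranged widely around these medians, from 43.4% to 81.3% for erythroid, 21.4% to 69.0% for neutrophil, 32.9% to 68.6% for B cell and 22.9% to 61.3% for plasma cell genes. In blood myeloid cells the values were 60.3%, 65.6%, 59.3% and 47.7%.

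The 31 genes that were higher in tissue in all 3 classes were highest in different classes. Their highest tissue level was in myeloid cells for 12 genes, in NK cells for 8, in T cells for 7 and in the cells outside the classes for 4. C1qa, C1qc and C1qb, the 3 chains of complement C1q, were highest in myeloid cells: C1qa stood at 1948 CPM there, 439 in T cells and 236 in NK cells. Over 8 complement genes, tissue T cells held a median of 22.8% of the myeloid level and NK cells 16.9%, and over 10 Kupffer cell genes 18.6% and 12.8%. Saa3, an acute phase protein, was likewise highest in myeloid cells at 7458 CPM, with 2577 in T cells. The chemokine genes Ccl3 and Ccl4 and the granzyme gene Gzmb were highest in T cells instead. Ccl3 stood at 1036 CPM in tissue T cells, 657 in NK cells, 367 in myeloid cells and 638 in the rest. Klrc1, an inhibitory NKG2 receptor, and Xcl1, a chemokine that attracts dendritic cells, were highest in NK cells, at 404 and 505 CPM. T cells held 393 and 313 CPM and myeloid cells 43.0 and 30.1 CPM, so Klrc1 was near equal in NK and T cells. Cxcl2, which attracts neutrophils, was highest outside the classes, at 783 CPM, and had 0 UMIs in blood T and NK cells. Genes at their highest level in the class itself, in the library where they were higher, made up 222 of the 546 genes apart and higher in T cells, or 40.7%, and 487 of 1113 in myeloid cells, or 43.8%. Of the genes apart and lower, these made up 136 of 485 (28.0%) and 158 of 531 (29.8%). This split was made after the data were seen.

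**Figure D1:**
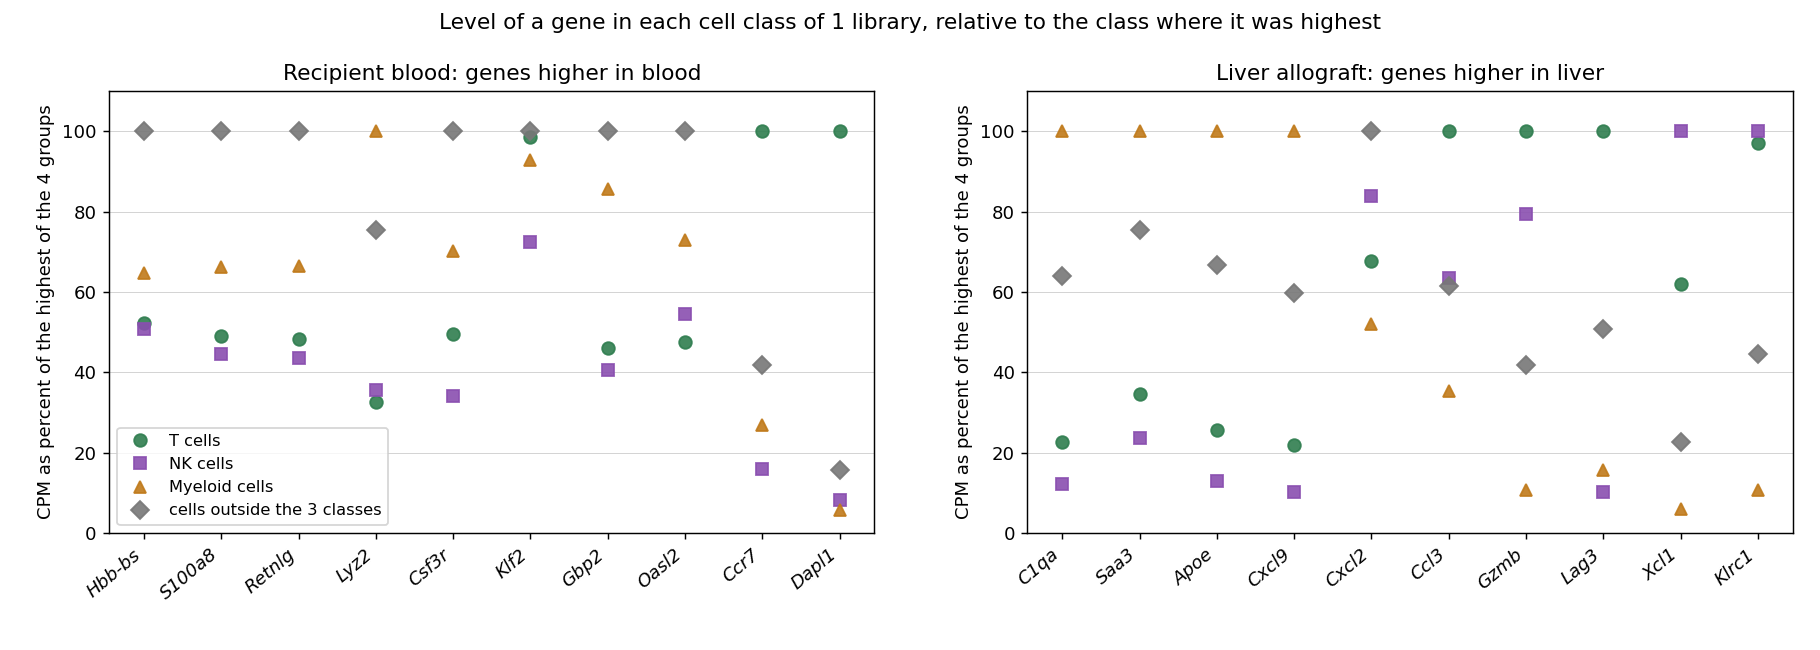
Level of 10 genes higher in blood (left) and 10 genes higher in liver (right) in each cell class of that library, as a percentage of the class where the gene was highest. In blood the lowest class held 50.9% of the highest level of Hbb-bs and 44.6% of that of S100a8, while Ccr7 and Dapl1 were highest in T cells themselves, and in liver Ccl3, Gzmb and Lag3 were highest in T cells and C1qa and Apoe in myeloid cells.

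Tissue T cells held Cd8 transcripts more often than blood T cells at equal depth, and few cells of either held Cd4. After each cell was thinned to 500 UMIs, Cd8a or Cd8b1 without Cd4 was found in 54.0% (52.6 to 55.3) of 5411 tissue T cells and 39.2% (33.8 to 44.9) of 316 blood T cells. Without thinning the values were 80.6% and 52.5%. Cd4 without either Cd8 gene was found in 1.18% of tissue and 0.633% of blood T cells after thinning. No UMI of Cd4, Cd8a or Cd8b1 was found in 44.3% of thinned tissue and 60.1% of thinned blood T cells. Without thinning these shares were 14.6% and 45.9%. Such cells could not be placed as Cd4 or Cd8 cells. Cd8a stood at 771 CPM (754 to 789) in tissue and 359.7 CPM (297 to 432) in blood, and Cd4 at 33.6 (30.1 to 37.4) and 22.1 CPM (8.88 to 45.5). With cells of over 2% of UMIs from neutrophil, erythroid, B cell, plasma cell and hepatocyte markers left out, Cd8a was within 2-fold, at a log2 ratio of 0.21 where the median over all genes was 1.33. As background, a Cd8b1 UMI was found in 8.25% of thinned tissue myeloid cells and 4.23% of blood myeloid cells, against 39.6% and 32.6% of T cells.

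Genes of naive and recirculating T cells were lower in tissue. Of 14 genes of this list, 11 were at least 2-fold lower and 1 was higher, where 8.74% of all genes compared were lower, with a median log2 ratio of −1.97. In myeloid cells 4 of 7 genes of this list were lower too, against 7.22% of all genes, with a median of −1.49. Ccr7 (chromosome 11, 99144196 to 99155077, minus strand of GRCm38), the receptor that leads T cells into lymph nodes, held 123 UMIs in tissue T cells and 59 in blood T cells, or 12.3 CPM (10.3 to 14.7) and 186 CPM (142 to 240.1). This was a log2 ratio of −3.81, and the blood level was more than that of blood NK cells (29.5 CPM) or myeloid cells (50.1 CPM). Klf2 stood at 51.3 CPM (46.9 to 55.9) and 388 CPM (323 to 463), with 394 CPM in the blood cells outside the classes. The remaining members included receptors and regulators of the resting state. Il7r, the receptor for interleukin 7, which sustains resting T cells, stood at 9.33 CPM (7.53 to 11.4) and 44.2 CPM (24.1 to 74.1). Dapl1, a marker of quiescent T cells, stood at 11.5 CPM (9.52 to 13.8) and 119.9 CPM (84.8 to 165), and Igfbp4 at 11.8 CPM (9.80 to 14.2) and 85.2 CPM (56.1 to 124). The transcription factors of early T cell stages were lower as well, Tcf7 by a log2 ratio of −1.81, Lef1 of −1.44 and Bach2 of −2.48, the last with 5 UMIs in blood. Satb1 had a ratio of −1.80 and was as high in blood NK cells, at 39.4 CPM, as in blood T cells, at 34.7 CPM. Ccr9, a gut-homing receptor, was the member that was higher, at 27.2 CPM (24.0 to 30.6) in tissue and 1 UMI in blood, a ratio of 8.62-fold (1.53 to 342).

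In shares of cells Klf2 and Ccr7 were also seen less often in tissue. A Klf2 UMI was found in 2.55% (2.15 to 3.01) of thinned tissue T cells and 18.4% (14.2 to 23.1) of blood T cells, and a Ccr7 UMI in 0.499% (0.329 to 0.725) and 7.59% (4.93 to 11.1). The unthinned values were 8.45% and 29.7% for Klf2 and 1.94% and 13.3% for Ccr7. Myeloid cells held a Klf2 UMI in 2.18% and 16.2% of thinned cells and a Ccr7 UMI in 0.0808% and 2.97%, in tissue and blood. For Klf2 the difference was thus found in T and myeloid cells alike, and for Ccr7 blood T cells stood above blood myeloid cells.

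Tissue T cells carried more of the effector chemokines and of part of the killing machinery. Of 14 cytotoxic genes, 7 were higher in tissue and 1 was lower, where 21.9% and 8.74% of all genes compared were, with a median log2 ratio of 1.02. With cells of over 2% of UMIs from neutrophil, erythroid, B cell, plasma cell and hepatocyte markers left out, which leaves 25 blood T cells, 5 were higher and 3 lower, with a median of 0.22 against 1.33 over all genes. In all myeloid cells 10 of 12 genes of this list were higher, against 20.6% of all genes, with a median of 1.27. Ccl3 (chromosome 11, 83647844 to 83649355, minus strand), which attracts cells through the receptor Ccr1, held 10327 UMIs in tissue and 7 in blood T cells, or 1036 CPM (1016 to 1056) and 22.1 CPM (8.88 to 45.5), a log2 ratio of 5.49. Its neighbour Ccl4 stood at 1359.5 CPM (1337 to 1383) and 34.7 CPM (17.3 to 62.1). In tissue both chemokines were highest in T cells, whereas in blood they were highest in NK cells, at 118 and 197 CPM. Interferon gamma, the cytokine that arms macrophages, stood at 169 CPM (161 to 177) in tissue and 12.6 CPM (3.44 to 32.3) in blood, where Ifng had 4 UMIs. The pore protein perforin, encoded by Prf1, stood at 278 CPM (268 to 288) and 59.9 CPM (36.1 to 93.6), and granzyme B, encoded by Gzmb (chromosome 14, 56258838 to 56262260, minus strand), at 5050.1 CPM (5006 to 5094) and 1704 CPM (1563 to 1854). Serpinb9, which shields killer cells from their own granzyme B, went the same way with a log2 ratio of 1.85. In tissue, Prf1 and Serpinb9 stood higher in NK cells, at 598 and 278 CPM. Other members were near equal: the log2 ratio was 0.40 for Gzma, 0.28 for Ccl5, 0.01 for Gzmk, 0.70 for Nkg7 and 0.28 for Fasl. Gzmm was the lower member, at 6.92 CPM (5.39 to 8.76) and 63.1 CPM (38.5 to 97.5), with 78.7 CPM in blood NK cells.

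A Gzmb UMI was found in 73.8% (72.6 to 75.0) of thinned tissue T cells and 36.7% (31.4 to 42.3) of blood T cells, with 24.6% and 3.89% in myeloid cells. A Ccl3 UMI was found in 30.4% (29.2 to 31.7) and 0.633% (0.0767 to 2.27), with 15.5% and 0.229% in myeloid cells, which also transcribe this gene. Ifng was found in 6.86% (6.20 to 7.56) and 0.316% (0.00801 to 1.75), against 1.46% and 0.114% of myeloid cells. The unthinned shares in tissue and blood T cells were 92.1% and 43.4% for Gzmb, 58.7% and 1.90% for Ccl3, and 19.8% and 1.27% for Ifng.

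Inhibitory receptors that T cells gain on repeated stimulation were also higher in tissue. Of 10 genes of this list with enough counts, 8 were higher, against 21.9% of all genes compared, and none lower, 1 of the 8 being Cd200r1, for which no fold can be given, with a median log2 ratio of 2.18, or 1.93 when the member with 0 UMIs in blood is set to 3 counts there. Lag3 (chromosome 6, 124904361 to 124911705, minus strand), an inhibitory receptor for MHC class II, stood at 246 CPM (236 to 256) and 22.1 CPM (8.88 to 45.5), and Pdcd1, which encodes PD-1, at 138 CPM (130.4 to 145) and 31.6 CPM (15.1 to 58.0). Ctla4, which competes with Cd28 for its ligands, stood at 217 CPM (208 to 227) and 63.1 CPM (38.5 to 97.5), and Havcr2, which encodes TIM-3, at 64.5 CPM (59.6 to 69.7) and 12.6 CPM (3.44 to 32.3). Tox, a transcription factor of exhausted T cells, had a log2 ratio of 2.35. Tigit had 472 UMIs in tissue and 1 in blood, a ratio of 15.0-fold (2.68 to 594), with 75.8 CPM in tissue NK cells and 47.4 CPM in tissue T cells. Cd200r1 held 71 and 0 UMIs, a tissue level of 7.12 CPM that lies below 3 counts in blood T cells, and stood at 21.5 CPM in tissue myeloid cells. Cd160 and Entpd1 were within 2-fold, at log2 ratios of 0.88 and −0.16. The list was not higher in T cells alone. In myeloid cells 6 of 8 of its genes were higher, against 20.6% of all genes, with a median of 2.11. After thinning, Lag3 was found in 12.6% (11.7 to 13.5) of tissue and 0.949% (0.196 to 2.75) of blood T cells, and Pdcd1 in 6.02% (5.41 to 6.69) and 0.633% (0.0767 to 2.27). Without thinning these were 32.8% and 2.22%, and 19.7% and 3.16%. As background, Lag3 was found in 1.86% and 0.114% of tissue and blood myeloid cells, and Pdcd1, which activated myeloid cells can also express, in 1.13% and 0%. Costimulatory receptors moved less. 4 of 13 genes were higher, where 21.9% of all genes compared were, and none lower: Tnfrsf9, Tnfrsf4, Icos and Tnfrsf18, which are induced by T cell receptor signals, with log2 ratios of 2.43, 1.89, 1.77 and 1.02. Tnfrsf9 was higher in tissue NK cells, at 160.0 CPM, than in tissue T cells, at 106 CPM. Cd28 and the common cytokine receptor chain Il2rg, which resting T cells also carry, had ratios of 0.06 and 0.04. With T cells of over 2% of UMIs from other cell types left out, 5 of the 13 costimulatory genes were higher and 2 lower. For 2 of these 5 no fold can be given. The share higher and the median log2 ratio of 0.46 were then below those over all genes.

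**Figure D2:**
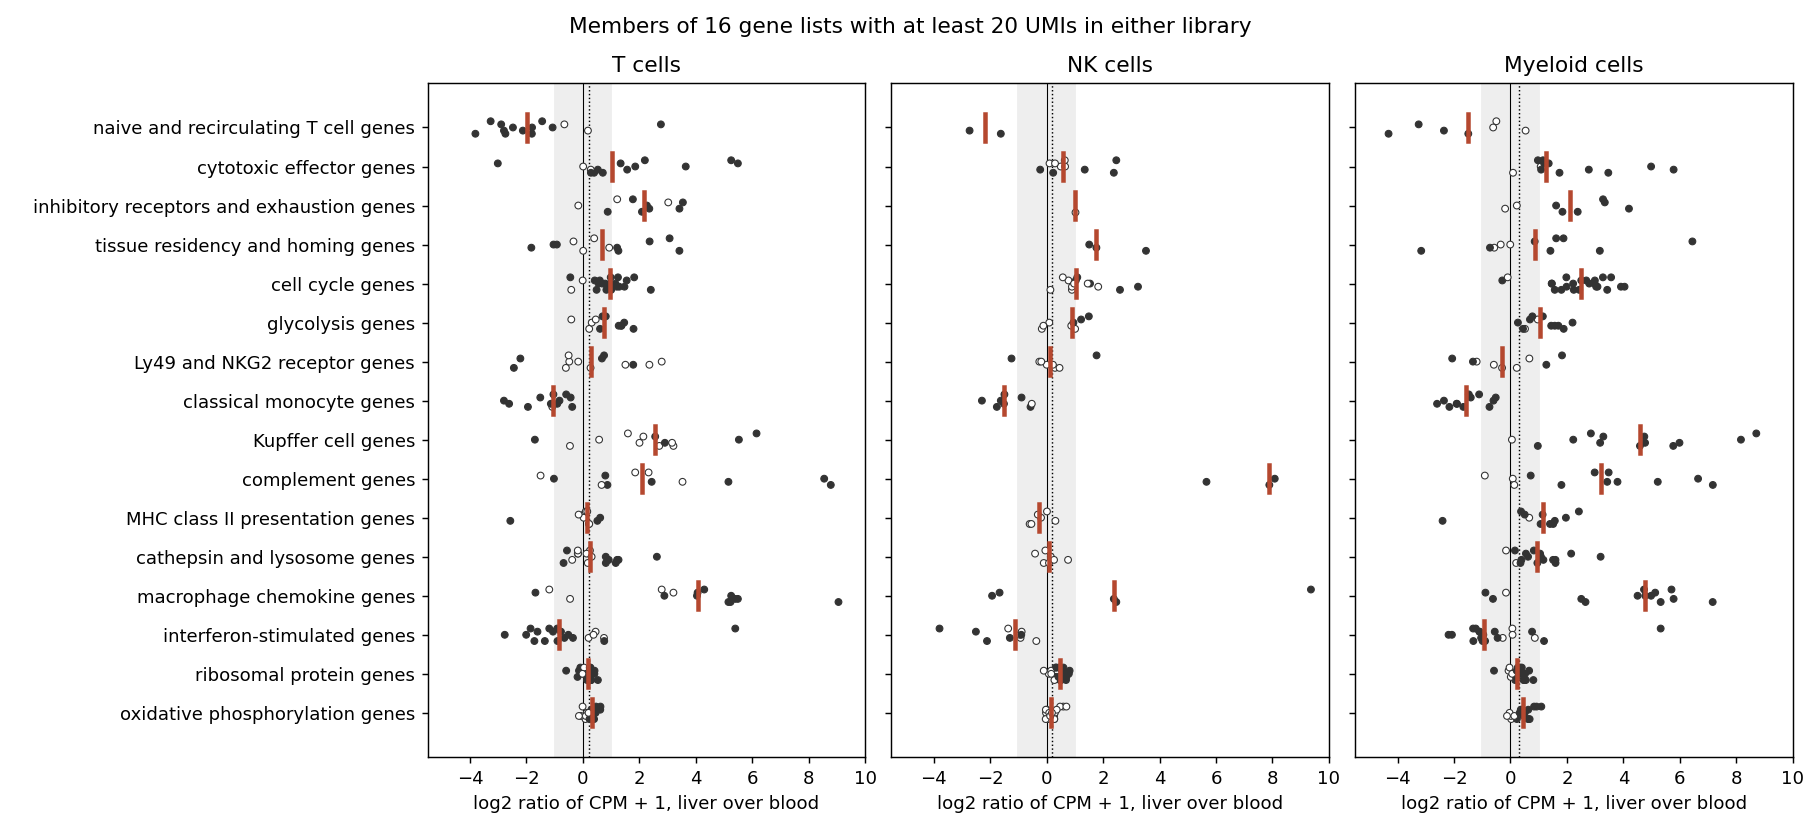
Log2 ratio of CPM plus 1, liver over blood, for each member of 16 gene lists with at least 20 UMIs in either library, in T, NK and myeloid cells. Filled points have Poisson intervals apart, red bars mark the list's median, the dotted line the median of all genes compared and the grey band the range within 2-fold. In T cells the median of the naive list lies to the left and that of the inhibitory list to the right, and the ribosomal and oxidative phosphorylation lists lie inside the grey band in T and NK cells.

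Genes of tissue residency gave mixed ratios. 5 of 12 genes were higher in tissue T cells and 2 lower, against 21.9% and 8.74% of all genes compared, with a median log2 ratio of 0.66. Xcl1 stood at 313 CPM (302 to 324) and 28.4 CPM, the latter from 9 UMIs, and Rgs1, which dampens chemokine receptor signals, at 246 CPM (236 to 256) and 28.4 CPM, from as many. Cxcr6, which holds T cells in liver sinusoids, stood at 280.3 CPM (270.0 to 291) and 117 CPM (82.2 to 161). In tissue, Xcl1 stood higher in NK cells, at 505 CPM. The defining residency genes were scarce. Itgae held 17 UMIs and Zfp683 9 in all 5411 tissue T cells, both under the 20-UMI rule, and Itga1 had a log2 ratio of 0.93. Cd69, an early activation and retention gene, was lower by a log2 ratio of −1.04, and Cxcr4 by −1.83, the latter with 66.7 CPM in the blood cells outside the classes. Cxcr3, the receptor for Cxcl9 and Cxcl10, was at 206 CPM (198 to 215) and 205 CPM (158 to 261), with intervals that overlapped.

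Some proliferation genes were higher in tissue T cells. 9 of 23 cell cycle genes were higher, against 21.9% of all genes compared, and none lower, with a median log2 ratio of 0.95, and the list summed to 8231 CPM in tissue and 5272 CPM in blood. In the T cells with little RNA of other cell types these counts were 3 higher and 2 lower, with a median of −0.09, below the median over all genes there. Tk1, a thymidine kinase of S phase, stood at 171 CPM (163 to 179.7) and 31.6 CPM (15.1 to 58.0), the mitotic cyclin Ccnb1 at 158 CPM (150.3 to 166) and 44.2 CPM (24.1 to 74.1), and Cdk1 at 187 CPM (178 to 195) and 63.1 CPM (38.5 to 97.5). Not every proliferation gene followed. Mki67 had 44.7 CPM in tissue and 59.9 CPM in blood with overlapping intervals, and H2afz had a log2 ratio of −0.45. A Top2a UMI was found in 5.10% (4.53 to 5.72) of thinned tissue and 2.85% (1.31 to 5.34) of blood T cells, against 2.18% and 0.114% of myeloid cells, and in 16.8% and 5.06% of T cells unthinned. Of 12 glycolysis genes 5 were higher, against the same 21.9%, and none lower. These were Tpi1, Pgk1, Hk2, Gapdh and Ldha, with log2 ratios of 1.79, 1.46, 1.36, 1.36 and 1.27, and the Hk2 ratio became −0.39 when each cell was thinned to 500 UMIs. Ldha, which makes lactate, stood at 1930.2 CPM (1903 to 1958) and 801 CPM (706 to 906). In the T cells with little RNA of other cell types, 4 of the 12 glycolysis genes were higher and 1 lower. For 2 of these 4 no fold can be given. The median log2 ratio was 0.75 there, and both this median and the share higher were below those over all genes.

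The 10 genes with the largest ratios in tissue T cells, outside the lists of other cell types and the genes apart in all classes, were Saa2, Marco, Saa1, Orm1, Gm23935, Il10, Gm24265, Hist1h3c, Cd5l and Cxcl9. Of these 10, only Gm23935 was at its highest tissue level in T cells. Marco and Cd5l, genes of Kupffer cells, stood at 70.0 and 45.0 CPM in tissue T cells and 418 and 286 CPM in myeloid cells. Saa1 and Saa2, serum amyloid genes of hepatocytes, stood at 69.9 and 75.0 CPM in T cells and 88.8 and 116 CPM in the cells outside the classes. The Il10 level of 46.4 CPM (42.3 to 50.9), from 463 UMIs, stood beside 50.5 CPM in 74 NK cells, 12.5 in myeloid cells and 26.7 in the rest. Il10 encodes the anti-inflammatory interleukin 10 and had 0 UMIs in blood T cells, which sets them at least 4.91-fold lower. Of the 10 lowest genes, Ccr7 and Dapl1 are described above, and Vnn3 and mt-Tt were highest in blood T cells too. Gm16556, Pi16, Rasgrp4, 1600010M07Rik, Scnn1a and Ifit3b were higher in other blood cells, Pi16 at 165 CPM outside the classes and 101 CPM in T cells. Among further genes that were highest in tissue T cells, Ctps, which encodes a CTP synthase that dividing T cells need, held 247 UMIs in tissue and 0 in blood, and the chemokine gene Ccl1 223 and 0. With 0 UMIs in blood these were at least 2.62-fold and 2.36-fold higher, from levels of 24.8 CPM (21.8 to 28.1) and 22.4 CPM (19.5 to 25.5). Rgs16, a signal regulator induced in activated T cells, stood at 52.3 CPM (47.9 to 57.0) and 3.16 CPM (0.0799 to 17.6).

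T cells of the other libraries were set beside these values as a description. In T cells of the kidney allograft and of kidney recipient blood, which share no library with the liver comparison, Ccl3 stood at 148 CPM (102 to 208) and 16.0 CPM (6.93 to 31.6), Ifng at 349.6 CPM (276 to 436) and 74.2 CPM (52.2 to 102), and Xcl1 at 421 CPM (340.4 to 516) and 56.1 CPM (37.3 to 81.1). Klf2 stood at 8.96 CPM in the kidney graft and 100.3 in its blood, and Ccr7 at 35.9 and 142. The order of these 5 genes was that of the liver pair. Gzmb was opposite, at 439 CPM (357 to 535) in the kidney graft and 1255 CPM (1159 to 1358) in blood, and so was Rgs1 at 40.3 and 154 CPM. Over the 3311 genes compared in both organs the median log2 ratio was −0.07 in kidney and 0.23 in liver. The 23 cell cycle genes had a median of −0.55 in kidney and 0.95 in liver. Of these 3311 genes 10.5% were higher and 18.2% lower in the kidney graft. The cytotoxic list had 3 of 13 genes higher and 5 lower in the kidney pair, with a median near 0 there and 1.34 in liver over the same genes, and the residency list had 2 of 8 higher and 4 lower, with medians of −1.09 and 0.20. The difference between organs was not tested, since each rests on 1 library of tissue and 1 of blood.

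**Figure D3:**
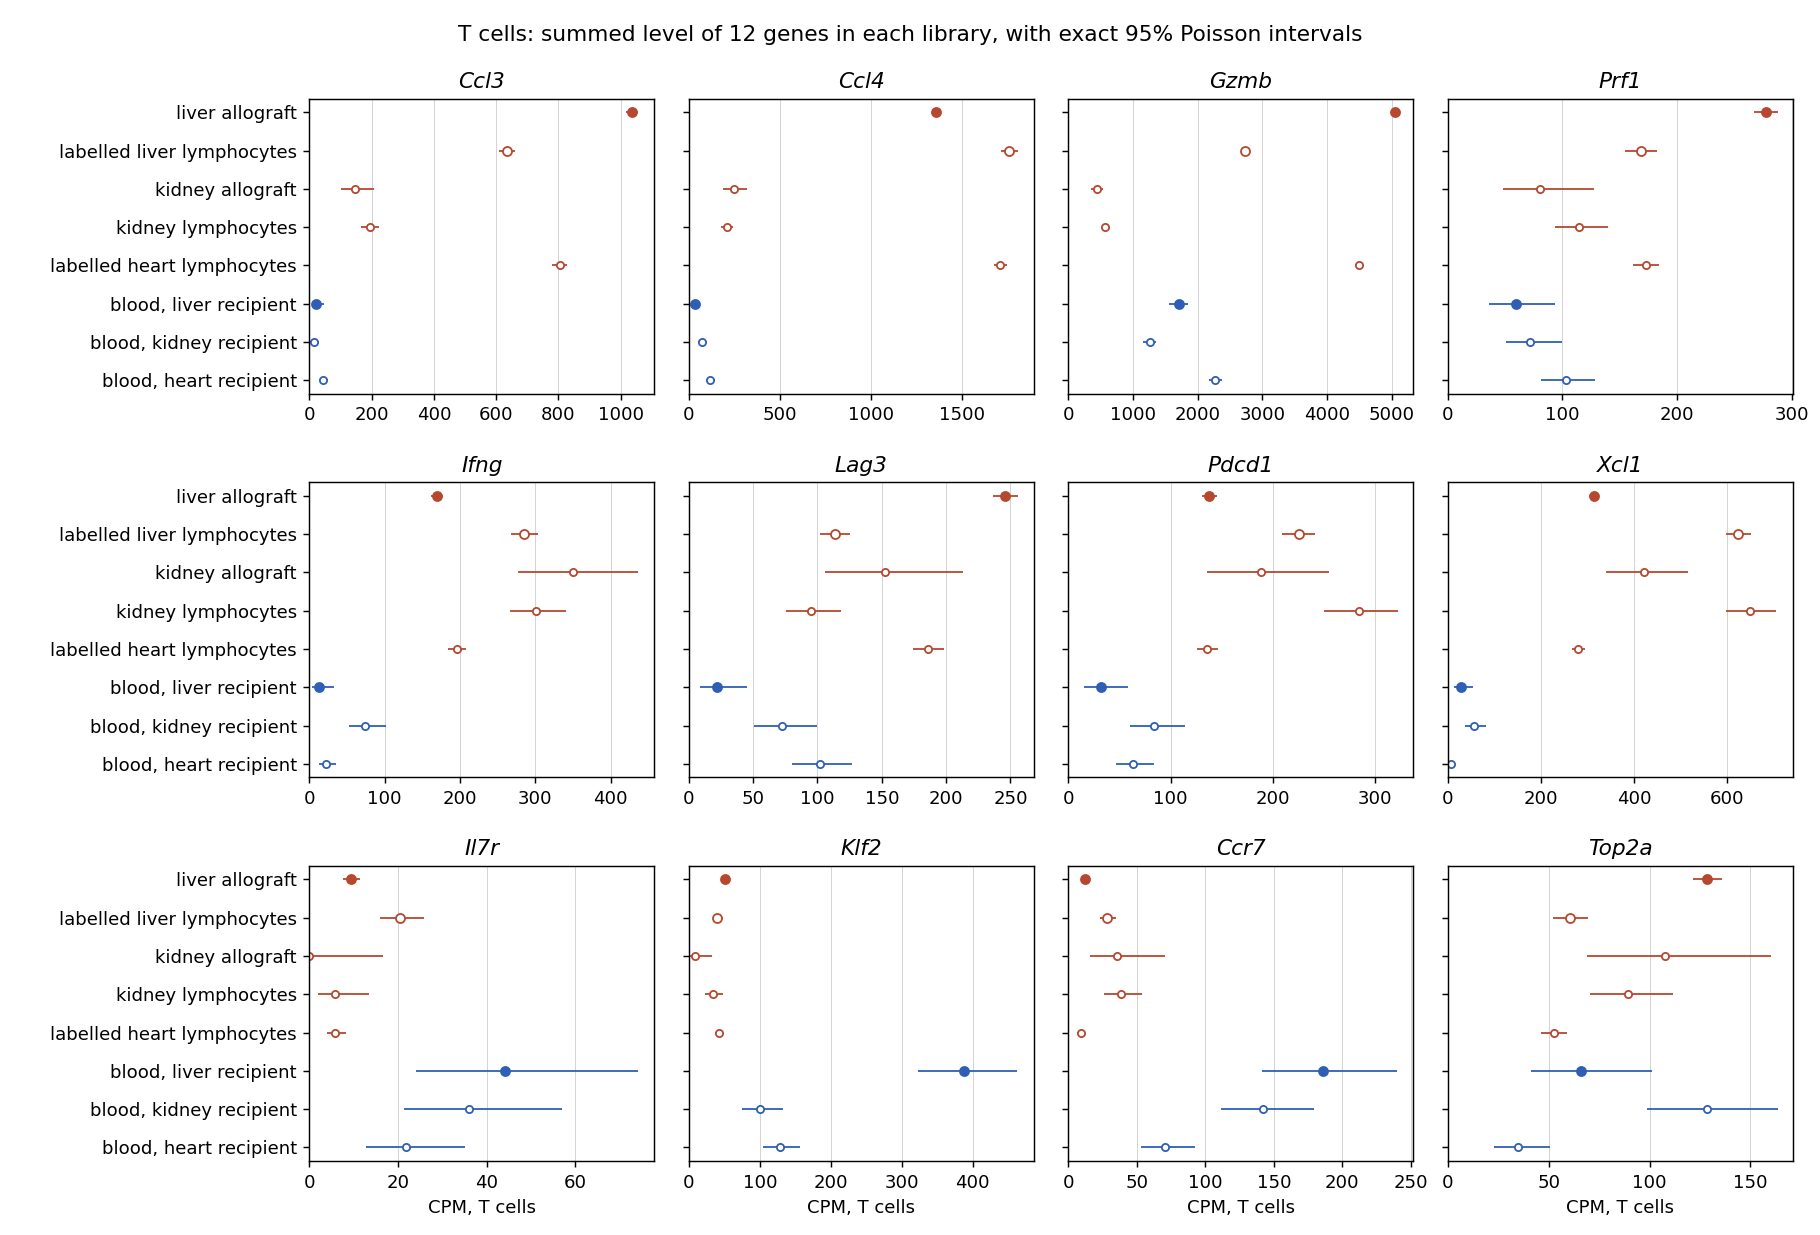
CPM of 12 genes in the T cells of each of the 8 libraries, with exact 95% Poisson intervals, organ libraries in red, blood in blue and the liver pair as filled points. Ccl3 stands at 1036 CPM in the liver allograft and at most 42.5 CPM in any of the 3 blood libraries, while Klf2 and Ccr7 are higher in each blood library than in the liver allograft. The libraries labelled liver and heart lymphocytes stand under their labels, and their T cells held 0 and 105 CPM of the hepatocyte gene Alb, an order opposite to the labels in this gene, and 1243 and 5295 CPM of Saa3.

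NK cells were few, 74 in tissue and 118 in blood, so fewer genes could be compared and intervals were wide. Gzma, the granzyme of NK cells, stood at 12970 CPM (12330 to 13634) and 11060 CPM (10423 to 11726), and the receptor genes Klrd1, Klrk1, Klra3 and Klre1 had log2 ratios of 0.45, 0.22, 0.29 and −0.19. These 5 genes were thus within 2-fold. Klra8, a gene of the class rule, was more than 2-fold lower in tissue, at 1212.8 CPM against 2548.5 CPM in blood NK cells. The summed level of the T cell markers was also higher in tissue NK cells, at 3369 CPM against 1584, with 4 of the 5 markers that had enough counts at least 2-fold higher, and 10 of the 74 tissue NK cells also met the T cell rule and 14 the myeloid rule. With these cells left out, 50 tissue and 109 blood NK cells remained, and 78 of 832 genes were higher and 103 lower, so that the higher ones made up 43.1% of the genes apart instead of 52.3%. The log2 ratios were then 1.90 for Ccl3, 2.37 for Ccl4, 1.28 for Gzmb and 2.59 for Pclaf. 3 of 10 cytotoxic genes were higher, where 10.8% of all genes compared were. Ccl3 stood at 657 CPM (519 to 819.9) and 118 CPM (61.0 to 206), Ccl4 at 1028 CPM (853 to 1227) and 197 CPM (120.2 to 304), and Gzmb at 4009 CPM (3657 to 4386) and 1574 CPM (1339.8 to 1838). Blood NK cells held more Ccl3 and Ccl4 than the other blood cells, where the levels were 8.01 and 21.8 CPM. All 3 residency genes with enough counts were higher in tissue. Rgs1 had 28 UMIs and 2, a ratio of 12.0-fold (3.02 to 104). Xcl1 stood at 505 CPM (386 to 650.4) and 177 CPM (105 to 279.9). Of the genes of liver type 1 innate lymphoid cells, Itga1, Cd200r1, Zfp683 and Inpp4b had 0 UMIs in both libraries, where 3 counts would allow 25.3 CPM in tissue, and Cxcr6 had 9 UMIs in tissue and 1 in blood.

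Most of the 8 Ly49 and NKG2 receptor genes compared in NK cells were near equal, with an exception in each direction. Klrc1 (chromosome 6, 129666015 to 129678973, minus strand), which encodes the inhibitory NKG2A, stood at 404 CPM (298 to 536) in tissue and 118 CPM (61.0 to 206) in blood. Tissue T cells held 393 CPM of Klrc1, within the interval of tissue NK cells, and its log2 ratio in T cells was 1.78. Klra9 (chromosome 6, 130178675 to 130193112, minus strand), of the Ly49 family, stood at 236 CPM (157 to 341) and 561 CPM (425 to 727). The other 6 of 8 Ly49 and NKG2 genes were within 2-fold, and the Ly49 genes are near-identical copies between which reads can be split. In blood, Klra9 was higher in NK cells than in every other class, and its log2 ratio of −1.25 came within 2-fold, at −0.80 with stricter classes and −0.49 with cells thinned to 500 UMIs. Genes of mature circulating NK cells gave 3 lower members of 10, where 9.82% of all genes compared were lower, and none higher, among them Klf2 at 42.1 CPM (13.7 to 98.3) and 285 CPM (191 to 409.8), and Cma1 at 75.8 and 197 CPM with overlapping intervals. Klf2 was no higher in blood NK cells than in the blood cells outside the classes, at 394 CPM. Of 13 cell cycle genes 7 were higher, against 10.8% of all genes compared, and none lower, with a median log2 ratio of 1.03, but with little RNA of other cell types, where 6 blood NK cells remained, 2 of 13 were higher, both with 0 UMIs in blood and too few in tissue for a fold, and the median was −0.18 against 0.28 over all genes. Stmn1, which loosens microtubules in mitosis, stood at 573 CPM (445 to 726) and 197 CPM (120.2 to 304), Pclaf, a partner of the replication clamp, at 362 CPM (262 to 488) and 59.0 CPM (21.7 to 128), and Cdca8 had 23 and 2 UMIs, a ratio of 9.84-fold (2.43 to 86.1). The 10 leading genes were Cdca8, Mrpl12, Dut, Pclaf, Sdha, Psmd4, Ppm1g, Mrpl54, Tpst2 and Wdr1, which include DNA synthesis, mitochondrial and proteasome genes. The 10 lowest were Sirpb1c, Pirb, Pgd, Pilra, Spi1, Atg3, Ccl6, Rtp4, Atp6v1g1 and Ms4a4c, and each of these was higher in other blood cells. Spi1, which encodes the myeloid transcription factor PU.1, stood at 561 CPM (425 to 727) in blood NK cells and 1136 CPM in blood myeloid cells. Sirpb1c had 0 UMIs in tissue NK cells and 23 in blood, at least 8.96-fold higher in blood. Of the 84 genes apart and lower in tissue NK cells, 8 (9.52%) were highest in blood NK cells.

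Myeloid cells of tissue carried genes of resident macrophages at higher levels than blood cells. Of 13 Kupffer cell genes with enough counts 11 were higher, against 20.6% of all genes compared, and none lower, with a median log2 ratio of 4.59, or 3.18 with the 6 members at 0 UMIs in blood set to 3 counts there. Marco (chromosome 1, 120474538 to 120505024, minus strand), a scavenger receptor, held 1070 UMIs in tissue and 0 in blood, at 418 CPM (393 to 444) at least 122-fold higher. Cd5l, a secreted protein of tissue macrophages, held 733 and 0 UMIs, Vsig4, a complement receptor, 160 and 0, and Clec4f, a lectin of Kupffer cells alone, 137 and 0. Their bounds were at least 83.8-fold, 18.3-fold and 15.7-fold. These 4 genes had no UMI in any blood class. The haem oxygenase Hmox1, which breaks down haem from red cells, stood at 1236 CPM (1193 to 1279) and 125 CPM (103 to 151), and the nuclear receptor Nr1h3 at 244 CPM (225 to 264) and 7.97 CPM (3.21 to 16.4). The iron exporter Slc40a1 was within 2-fold, at 96.9 CPM (85.2 to 109.7) and 93.4 CPM (74.3 to 116). Vcam1 and Spic, genes of macrophages that clear red cells, held 339 and 306 UMIs in tissue and 0 in blood, and so did Procr (204) and the chemokine gene Ccl8 (365). Mertk, a receptor for dying cells, held 152 UMIs in tissue and 0 in blood. The other leading genes were Gm15056, Arg1 and Mt2.

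Complement genes were also higher in tissue myeloid cells. 8 of 12 were higher, against 20.6% of all genes compared, and none lower, with a median log2 ratio of 3.21, or 1.69 with the members at 0 set to 3 counts, and the list summed to 9239.5 CPM in tissue and 729 CPM in blood. C1qa (chromosome 4, 136895917 to 136898803, minus strand) stood at 1948 CPM (1894 to 2002) and 12.5 CPM (6.25 to 22.4), C1qb at 3558 CPM (3486 to 3632) and 94.5 CPM (75.3 to 117), and C1qc at 2269 CPM (2211 to 2328) and 21.6 CPM from 19 UMIs. A C1qa UMI was found in 43.6% (40.8 to 46.4) of thinned tissue myeloid cells and 0.800% (0.322 to 1.64) of blood myeloid cells, with 18.9% of tissue T cells as background and 0 of 316 blood T cells, which allows a share of up to 0.949%. The unthinned shares of myeloid cells were 63.7% and 0.914%. Factor B (Cfb) stood at 169 CPM (154 to 186) and 20.5 CPM (12.2 to 32.4), and properdin (Cfp) at 723 CPM (691 to 757) and 206 CPM (177 to 238), both of the alternative pathway. The receptor gene C3ar1 was higher by a log2 ratio of 3.79, whereas C5ar1 was at 0.08.

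Chemokine and antigen presentation genes followed the same direction in myeloid cells. 11 of 14 macrophage chemokine genes were higher, against the same 20.6%, with a median log2 ratio of 4.75, or 4.62 with members at 0 set to 3 counts, and none was 2-fold lower. Cxcl9 (chromosome 5, 92321347 to 92328079, minus strand), which is induced by interferon gamma and calls T cells through Cxcr3, stood at 1407 CPM (1361 to 1453) and 34.2 CPM (23.1 to 48.8), and Cxcl16, the ligand of Cxcr6, at 338 CPM (316 to 362) and 11.4 CPM (5.46 to 20.9). Cxcl10, a further Cxcr3 ligand, stood at 556 CPM (528 to 586) and 96.8 CPM (77.3 to 119.7). The monocyte chemokines Ccl2, Ccl7 and Ccl12 had log2 ratios of 2.66, 4.73 and 4.50, and the B cell chemokine Cxcl13 held 116 UMIs in tissue and 0 in blood. Ccl6 and Ccl9, which circulating myeloid cells carry, pointed the other way within 2-fold, at −0.89 and −0.62. Of 11 genes of MHC class II presentation 7 were higher and 1 lower, against 20.6% and 7.22% of all genes compared. The invariant chain Cd74 stood at 10651 CPM (10525 to 10778) and 4833 CPM (4688 to 4980.4), H2-Eb1 at 4355 CPM (4274 to 4436) and 1115 CPM (1046 to 1187), and the costimulatory ligand Cd86 at 114 CPM (102 to 128) and 20.5 CPM (12.2 to 32.4). The lower member was H2-DMb2, at 20.7 CPM (15.5 to 27.1) and 114 CPM (92.7 to 139). Of 17 cathepsin and lysosome genes 8 were higher, against 20.6%, and none lower, led by the protease legumain (Lgmn) at 905 CPM (869 to 943) and 98.0 CPM (78.4 to 121), and by the acid lipase Lipa with a log2 ratio of 2.15. In the myeloid cells with little RNA of other cell types, 4 of these 17 were higher and none lower. That share was less than the share of all genes that were higher there, which is given below.

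Arg1, the arginase that depletes arginine and marks suppressive macrophages, held 1195 UMIs in tissue and 2 in blood, a ratio of 205-fold (56.6 to 1694), and Nos2, the enzyme that competes for the same amino acid, held 79 and 0. Both were highest in myeloid cells among the classes of the tissue library. Lpl and Gpnmb, genes of lipid-laden macrophages, stood at 581 CPM (552 to 611) and 22.8 CPM (13.9 to 35.2), and 104 CPM (91.8 to 117) and 1.14 CPM (0.0288 to 6.35). Apoe stood at 3558 CPM (3486 to 3632) and 569.5 CPM (521 to 622), and Spp1, which encodes osteopontin, at 174 CPM (158 to 191) and 11.4 CPM (5.46 to 20.9). Of 14 genes of this group 7 were higher and 3 lower, against 20.6% and 7.22% of all genes compared, the lower ones being Anxa1, Anxa2 and Cd9, which neutrophils or platelets also carry. With cells of over 2% of UMIs from neutrophil, erythroid, B cell, plasma cell and hepatocyte markers left out, Cd9 stood at a log2 ratio of 1.64, from 2 blood UMIs and with overlapping intervals. Trem2, a lipid receptor, was at 0.47.

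Genes of classical monocytes were lower in tissue. 9 of 12 were lower, against 7.22% of all genes compared, and none higher, with a median log2 ratio of −1.57. Ccr2, the receptor that draws monocytes from marrow and blood, stood at 192 CPM (175 to 209.5) and 721 CPM (666 to 779), the matrix gene Vcan at 16.0 CPM (11.5 to 21.7) and 75.2 CPM (58.1 to 95.6), and Gm9733 at 92.2 CPM (80.8 to 105) and 564 CPM (515 to 616). Plac8 stood at 3512 CPM (3440.1 to 3586) and 7580 CPM (7399 to 7764), and Chil3 and Ly6c2 were within 2-fold at log2 ratios of −0.52 and −0.74. Ccr2, Vcan, Gm9733 and Plac8 were highest in myeloid cells among the blood classes. Ace, a gene of patrolling monocytes, was lower, at 4.69 CPM (2.42 to 8.19) and 27.3 CPM (17.5 to 40.7), but that list was mixed, with 4 of 14 genes higher and 2 lower, where 20.6% and 7.22% of all genes were. The 10 lowest genes by ratio were Gm17619, Retn, Ccr7, RP24-395P13.1, Ifit1bl2, Alox5, Gm16556, Cd300lg, Siglecg and H2-Q10, of which Cd300lg was highest in blood myeloid cells and the others in other blood cells. Alox5, which starts leukotriene synthesis, stood at 1.95 CPM (0.634 to 4.56) and 52.4 CPM (38.4 to 69.9), with 65.8 CPM outside the classes.

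Cell cycle genes of myeloid cells gave higher ratios than those of T cells, from a lower level. 21 of 23 were higher, against 20.6% of all genes compared, and none lower, with a median log2 ratio of 2.51. Top2a, which untangles replicated DNA, stood at 46.1 CPM (38.2 to 55.2) in tissue and 4.56 CPM (1.24 to 11.7) in blood, with 129 CPM in tissue T cells. Pclaf stood at 147 CPM (132 to 162) and 7.97 CPM (3.21 to 16.4), with 541 CPM in tissue T cells. The 14 T cell markers summed to 1252 CPM in tissue myeloid cells and 462 in blood myeloid cells, and the part of T cell RNA in these ratios was not tested. Gzmb, a T and NK cell gene, was higher in tissue myeloid cells in the same way, at 545 CPM (516 to 574) and 78.6 CPM (61.1 to 99.5). Of 12 glycolysis genes 6 were higher, against the same 20.6%, and none lower, Pgk1 at a log2 ratio of 2.20, Tpi1 at 1.89 and Gapdh at 1.57.

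Tissue myeloid cells were then divided by Kupffer cell transcripts, a choice made after the data were seen. At least 2 UMIs of Clec4f, Vsig4, Cd5l, Marco and Timd4 together were found in 125 of 1237 tissue myeloid cells, or 10.1% (8.48 to 11.9), and in 0 of 875 blood myeloid cells, which allows a share of up to 0.343%. The macrophage genes named here were not limited to these cells. C1qa stood at 3105 CPM in the 125 cells, 1759 CPM in the 963 tissue cells with none of these UMIs and 12.5 CPM in blood. Arg1 stood at 456, 456 and 2.28 CPM, Cd74 at 10154, 10992 and 4833, and Cxcl9 at 1012, 1529 and 34.2. Other genes differed more between the tissue cells, among them Slc40a1, the chemokine gene Ccl8 and monocyte genes. Slc40a1 stood at 411 CPM (347 to 484) in the 125 cells and 42.2 CPM (33.4 to 52.6) in the 963. Ccl8 stood at 312 CPM (256 to 376) and 123 CPM (108 to 139.9). Ccr2 stood at 45.4 and 218 CPM with 721 CPM in blood, and Chil3 at 1656, 5354 and 6939 CPM. The 963 cells without Kupffer transcripts thus lay between the 125 cells and blood for these monocyte genes. The median depth was 2585 UMIs in the 125 cells and 1643 in the 963.

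A transcript that differs between the strains was found in the cells with Kupffer transcripts. H2-Ea-ps (chromosome 17, 34341959 to 34344645, minus strand) is annotated as a polymorphic pseudogene: it encodes the alpha chain of an MHC class II molecule that BALB/c mice transcribe and C57BL/6 mice, through a deletion, do not. It held 27 UMIs in 14 of the 125 cells, or 76.6 CPM (50.5 to 111). In the 963 tissue myeloid cells with none of the Kupffer transcripts it held 6 UMIs, or 3.21 CPM (1.18 to 6.98), and in the 149 cells with 1 such UMI it held 0, where 3 counts would be 8.90 CPM. Tissue T cells held 29 UMIs, or 2.91 CPM (1.95 to 4.18), and the tissue cells outside the classes 45 UMIs, or 6.86 CPM. Every blood class held 0 UMIs, and 3 counts would be 0.728 CPM in the cells outside the classes. In blood T, NK and myeloid cells 3 counts would be 9.47, 29.5 and 3.42 CPM. These limits lie above the levels of tissue T cells, tissue NK cells (8.42 CPM, from 1 UMI) and the 963 tissue myeloid cells. The zeros of these 3 blood classes therefore cannot place blood below those tissue cells. The other cells of the 125 held no UMI of this gene, and no cell was assigned to a strain from it.

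**Figure D4:**
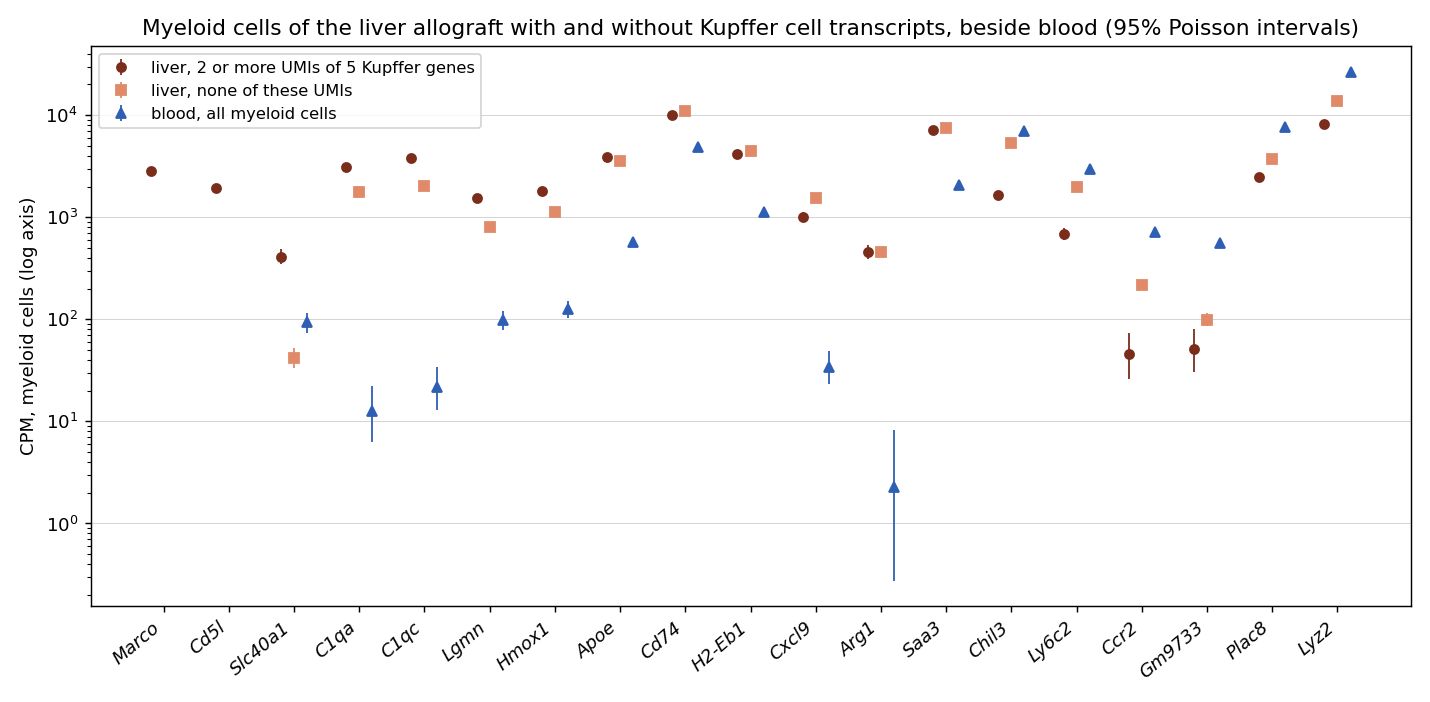
CPM of 19 genes on a log axis, with exact 95% Poisson intervals, in the 125 tissue myeloid cells with at least 2 UMIs of 5 Kupffer genes, in the 963 with none and in 875 blood myeloid cells. Marco and Cd5l were used to choose the 125 cells, and values of 0 are not drawn. C1qa, Apoe and Cd74 are high in both groups of tissue cells, whereas Chil3, Ly6c2 and Ccr2 are lowest in the 125 cells and highest in blood.

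Among interferon-stimulated genes, more were lower than higher in tissue, in contrast to Cxcl9. Of 20 such genes 8 were lower and 1 higher in T cells, 5 of 10 lower and none higher in NK cells, and 8 lower and 2 higher in myeloid cells, where 8.74%, 9.82% and 7.22% of all genes compared were lower, with median log2 ratios of −0.84, −1.13 and −0.93. Ifit3, Oasl2, Gbp2 and Irgm1 were lower in all 3 classes. Oasl2, an antiviral protein related to oligoadenylate synthetases, stood at 45.8 CPM (41.7 to 50.2) and 319 CPM (259.6 to 387) in T cells and 106 CPM (93.6 to 119) and 487 CPM (442 to 536) in myeloid cells. The guanylate-binding protein gene Gbp2 stood at 285 CPM (275 to 296) and 1035 CPM (926 to 1153) in T cells, 160.0 CPM (96.3 to 249.9) and 915 CPM (739 to 1121) in NK cells, and 769.9 CPM (736 to 805) and 1927 CPM (1836 to 2021) in myeloid cells. Ifit3 stood at 77.7 CPM (67.3 to 89.3) and 330.3 CPM (293 to 371) in myeloid cells. Each of the 4 was at its highest blood level in the cells outside the classes, Gbp2 at 2251 CPM, Ifit3 at 437, Oasl2 at 669 and Irgm1 at 465, and the part of released RNA in the T and NK ratios was not tested. With cells of over 2% of UMIs from neutrophil, erythroid, B cell, plasma cell and hepatocyte markers left out, blood T cells held only 1 UMI of Ifit3, 2 of Irgm1, 3 of Oasl2 and 10 of Gbp2, too few to place these genes, and the intervals of tissue and blood overlapped for each. The list then had 8 genes higher, 4 of them with 0 UMIs in blood and too low in tissue for a fold, and 1 lower in T cells, with a median of 0.49 where the median over all genes was 1.33 and 51.7% of them were higher. In NK cells 1 of 4 was higher and none lower, with a median of 0.25, and in myeloid cells 2 of 20 were higher and 2 lower, with a median of −0.56 against 0.17 over all genes. In myeloid cells the log2 ratios were then −0.98 for Gbp2, −0.88 for Irgm1 and −1.17 for Oasl2, with separate intervals, and −0.39 for Ifit3, with overlapping intervals. Within the cells outside the classes, whose make-up differed between the libraries, tissue held 581 CPM of Gbp2 and 75.9 CPM of Ifit3. Gbp4 pointed the other way, at 183 CPM (167 to 201) and 79.7 CPM (62.2 to 101) in myeloid cells.

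Many promoters of these genes hold a short motif, which is shown because members with it differed in opposite directions. The motif searched was GAAANNGAA on either strand, the core that interferon regulatory factors bind, in the 250 bases before and 50 after each start in RefSeq on GRCm38.p6. It was in 2812 of 32851 promoters, or 8.56%, and in at least 1 promoter of 2638 of 27025 genes, or 9.76%, and of 9 of the 13 listed interferon-stimulated genes with an entry. Ifit3, Gbp2 and Irgm1 held it and were lower in all 3 classes, Oasl2 was lower without it, and Cxcl9 held it and was higher. The windows of 50 bases below are written 5′ to 3′ along the gene's strand, with the motif, or its reverse complement TTCNNTTTC, in capitals.
Ifit3 (chr19:34583406-34583455, plus strand): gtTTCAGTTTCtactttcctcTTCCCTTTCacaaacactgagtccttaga
Gbp2 (chr3:142620584-142620633, plus strand): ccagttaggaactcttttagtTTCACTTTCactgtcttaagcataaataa
Irgm1 (chr11:48871416-48871465, minus strand): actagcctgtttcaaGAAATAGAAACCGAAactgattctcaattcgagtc
Cxcl9 (chr5:92328226-92328275, minus strand): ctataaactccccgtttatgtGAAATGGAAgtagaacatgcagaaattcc
Ifit3 held 3 matches in its promoter, Irgm1 2 that overlap, and Gbp2 and Cxcl9 1 each. A match is only a run of letters and does not show that a factor binds there.

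The main groups were also read in the cells with little RNA of other cell types, which left few blood cells. Of the T cells 4059 in tissue and 25 in blood, and of the myeloid cells 1041 and 60, held at most 2% of UMIs from those 5 marker lists. The median log2 ratio over all genes was 1.33 in T cells, where 51.7% of all genes were at least 2-fold higher in tissue, and 0.17 in myeloid cells, where 27.6% were, so the T cell ratios are not centred on 0. Of 13 naive T cell genes 7 were lower there, against 14.6% of all genes, and 2 were higher, both with 0 UMIs in blood and too low in tissue for a fold. Of 10 inhibitory receptor genes 7 were higher, 3 of them likewise without a fold, and 1 was lower. In T cells Ccr7 stood at 12.2 CPM (9.93 to 14.9) in tissue and 84.5 CPM (17.4 to 247) in blood, from 3 blood UMIs. Ccl3 stood at 1075 CPM (1052 to 1098) in tissue and 84.5 CPM (17.4 to 247) in blood, also from 3 blood UMIs. Ifng and Lag3 were higher with separate intervals, from 1 and 2 blood UMIs, at log2 ratios of 2.67 and 2.19, and Lag3 lay less than 2-fold above the median of all genes. For Klf2 the intervals overlapped, at 45.8 CPM (41.3 to 50.8) in tissue and 141 CPM (45.7 to 329) in blood. Gzmb was within 2-fold, at a log2 ratio of 0.94. Satb1, Cxcr4, Pi16 and Scnn1a had 0 UMIs in these blood T cells, where 3 counts would be 84.5 CPM and their tissue levels were lower, so no ratio is given for them. Myeloid cells kept more blood UMIs. C1qa had a log2 ratio of 5.71 from 4 blood UMIs, Ccr2 of −2.76 from 121 and Plac8 of −1.69 from 1078, each with separate intervals, and Cd74 was within 2-fold at 0.88. Of 12 classical monocyte genes 11 were at least 2-fold lower there, against 10.8% of all genes. In NK cells only 6 blood cells were left, and the intervals overlapped for Klrc1 and Pclaf.

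Housekeeping groups differed little. Of 21 ribosomal protein genes none was 2-fold apart in any class, with median log2 ratios of 0.18 in T cells, 0.47 in NK cells and 0.22 in myeloid cells. Of 18 oxidative phosphorylation genes 1 was higher, in myeloid cells, and the medians were 0.30, 0.16 and 0.43. These values lie near the medians over all genes compared, 0.21, 0.19 and 0.30.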

How the data were processed

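The authors deposited raw UMI counts, whole numbers per gene and cell barcode, with 10000 barcodes in each of the 8 tables. Per the study's methods, reads with low-quality barcode bases were dropped, the remainder were aligned to the mouse genome, reads aligned to several places were removed, and similar UMIs of a gene were merged. The submitters' processing notes name bcl2fastq, STAR and GRCm38. Reads of near-identical genes, such as the Ly49 family, can therefore be lost. The total was 19171264 UMIs in the liver tissue library and 6731112 in the blood library, and every tissue barcode but only 6822 of the 10000 blood barcodes had at least 500 UMIs. No column was left out.

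From these counts, UMIs of each class were summed per library and scaled to CPM, with exact Poisson intervals for levels and exact Clopper-Pearson binomial intervals for shares, at the 95% level. The cells of 1 library are not replicates, so no p-value was computed, and intervals and floors cover counting error only. A count of 0 was given a floor of 3 counts per class sum, and a share of 0 the limit of 3 counts of its total. For shares, each cell was thinned at random to 500 UMIs. No doublet caller was run. Cells meeting more than 1 class rule stayed in both classes, and leaving out these cells or the deepest 5% of each class were alternatives. The genes named are, per class and direction, the 10 with the largest log2 ratio that were at least 2-fold apart with separate intervals, leaving out markers of other cell types, immunoglobulin and haemoglobin genes, class-rule genes and genes apart in all 3 classes; the 10 leading genes of those apart in all 3 classes; and members of 26 gene lists, some of which are not reported here. Genes outside this rule were chosen after their values were seen. The members and lists were chosen with earlier results of these data known. Gene positions came from the GENCODE annotation of GRCm38, and promoters from RefSeq on GRCm38.p6. The step that compares class sums, with separate intervals required, was tested on simulated sums with known changes. The placing of cells in classes, the summing over cells and the thinning were not tested in this way. Results were recomputed under 13 other settings of these choices and under 3 chosen after seeing the data. Python 3.11.15 with numpy 2.4.6, scipy 1.17.1, pandas 2.3.3 and matplotlib 3.10.9 was used.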

Additional observations from a re-analysis of the deposited data

How the results depend on the processing

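Counts of genes at least 2-fold apart are given in the order T higher, T lower, NK higher, NK lower, myeloid higher, myeloid lower, then higher and lower in all 3 classes. Against 2423, 967, 115, 105, 1630, 570, 31 and 56 genes, those that moved by over 1.5 times were as follows. A pseudocount of 5 CPM gave 1184 and 570 in T cells. Without the 20-UMI minimum, T lower, NK higher, NK lower, myeloid higher and lower, and all 3 classes gave 1709, 3144, 2623, 3133, 1766, 529 and 317, and with 50 UMIs the last 6 of the 8 counts were 31, 40, 978, 334, 13 and 26. Cells of at least 1000 UMIs gave 37 for NK lower and 20 for lower in all 3. Cells thinned to 500 UMIs gave 609 for T lower and 15, 51, 832, 297, 7 and 29 for the rest, and stricter classes gave 39, 52, 909, 293, 8 and 24. Centring on the median gave 906 for myeloid lower. Leaving out cells with over 2% of UMIs from other cell types gave 5451 and 1543 in T cells, 232 for NK higher and 5 for lower in all 3. Chosen after seeing the data, equal depth gave 309 and 259 in T cells and 933 for myeloid higher, separate intervals gave 546, 485 and 64 for T higher, T lower and NK higher, and genes at their highest level in their own class numbered 818, 394, 66, 16, 657 and 170. The mitochondrial filter, single classes, shared barcodes, the deepest 5% and CPM without haemoglobin, immunoglobulin, ribosomal and mitochondrial genes moved no count that far. Stricter rules test fewer genes or cells; other causes were not tested.

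Over all alternatives, 5430 of 6165 values for named genes lay within the counting interval of the log2 ratio, 721 outside it and 14 had the opposite sign. The UMI minimum per gene does not enter a ratio, so the 487 values without it and the 410 with 50 UMIs repeated the main ones. They lay within by construction. With cells of over 2% other UMIs left out, 120 of 337 values lay within, 205 outside and 12 had the opposite sign. The values of opposite sign with thinned cells were Hk2 (−0.39) and Treml4 (−0.19) in T cells. With cells of over 2% other UMIs left out, which leaves 25 T, 6 NK and 60 myeloid cells of blood, they were Car2 (−0.61), Ifit3 (0.0925), Irgm1 (0.46), Jund (0.58), Rtp4 (6.66), Spi1 (2.54) and Wfdc21 (0.44) in T cells, Pclaf (−0.20) and Pglyrp1 (0.66) in NK cells and Cd9 (1.64), Dusp1 (0.34) and Pglyrp1 (0.15) in myeloid cells, each from at most 12 blood UMIs and all but Spi1 with overlapping intervals. Under this setting 97 ratios of 0 UMIs against a level under 3 counts were left out. No paired analysis was possible because each condition was 1 library, so the spread between samples is unknown and no library could be left out. Depth limited blood T cells and both NK classes most.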

Other observations

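Acute phase genes did not share 1 direction. Saa3, an acute phase protein that macrophages also make, stood at 2577 CPM (2546 to 2609) in tissue T cells and 644 CPM (558 to 738) in blood T cells, with log2 ratios of 1.81 in NK cells and 1.86 in myeloid cells. Slpi, a protease inhibitor of neutrophils, went the other way, at −2.54, −2.34 and −2.80, and Hp, the haptoglobin gene, at −1.51 in T cells and −1.41 in myeloid cells. Of 9 acute phase and whey acidic protein domain genes 3 were higher, 1 of them with 0 UMIs in blood and too low in tissue for a fold, and 4 lower in T cells, 1 of 7 higher and 5 lower in NK cells, and 2 of 8 higher and 4 lower in myeloid cells. Over all genes compared, 21.9% were higher and 8.74% lower in T cells, 10.8% and 9.82% in NK cells, and 20.6% and 7.22% in myeloid cells. With cells of over 2% other UMIs left out, 4 of 9 were higher in T cells, 2 of them without a fold, and none lower. This share higher was less than that over all genes there. In NK cells 1 of 5 was then higher and 2 lower, and in myeloid cells 2 of 8 were higher and 2 lower. In myeloid cells Lcn2 and Wfdc21, which neutrophils carry, had ratios of −1.30 and −1.26.

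Genes that respond within minutes to stimulation or to cell isolation were divided too. The heat shock gene Hspa1a held 964 UMIs in tissue and 3 in blood T cells, a ratio of 10.2-fold (3.49 to 49.6), and stood at 166 CPM (151 to 183) and 10.3 CPM (4.69 to 19.5) in myeloid cells. Ier3 was higher by log2 ratios of 1.83 and 1.48 in T and myeloid cells, whereas Dusp1 was lower at −1.35 and −1.39, Jund at −1.38 and −1.25, and Fos was within 2-fold at −0.23 and −0.35. With cells of over 2% other UMIs left out, Jund stood at 0.58 in T cells and Dusp1 at 0.34 in myeloid cells, from 1 and 12 blood UMIs and with overlapping intervals. Over 15 such genes in T cells 6 were higher, 1 of them likewise without a fold, and 2 lower, and over 14 in myeloid cells 4 were higher and 4 lower. Of all genes compared, 21.9% were higher and 8.74% lower in T cells, and 20.6% and 7.22% in myeloid cells.

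Of 11 inflammatory cytokine genes 6 were higher and 1 lower in myeloid cells, where 20.6% and 7.22% of all genes compared were. Tnf, the tumour necrosis factor gene, stood at 125 CPM (111 to 139) and 11.4 CPM (5.46 to 20.9), and Il1a held 148 UMIs in tissue and 0 in blood, at least 16.9-fold higher, while Il1b was within 2-fold at a log2 ratio of −0.39. Csf1, the ligand of Csf1r, was the lower gene at −2.00. Of 5 coagulation genes 2 were higher and 2 lower, against the same 20.6% and 7.22%. F7, which starts the extrinsic pathway with tissue factor, held 92 and 2 UMIs, a ratio of 15.8-fold (4.24 to 132), and F13a1, a monocyte gene for factor XIII, had a log2 ratio of −1.90. Of the patrolling monocyte genes, Cd300e, Cd36 and Treml4 were higher, at 2.15, 2.04 and 1.27, and Pglyrp1 was lower at −2.61, beside Ace, but at 0.15 with those cells left out, from 5 blood UMIs.

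Transcripts of hepatocytes and stromal cells were found in tissue T cells at low level. Of 20 hepatocyte genes with enough counts 17 had 0 UMIs in blood T cells, and of 8 stromal genes 6. The median log2 ratios were 3.81 and 3.68, or 1.20 and 0.71 with those genes at their lower bound, with summed levels of 561 and 149 CPM in tissue and 25.2 and 15.8 CPM in blood. The cyclin gene Ccnd2 differed in direction between classes, at 67.4 CPM (29.1 to 133) and 216 CPM (136 to 328) in NK cells and 64.8 CPM (55.4 to 75.5) and 27.3 CPM (17.5 to 40.7) in myeloid cells. The difference between classes was not tested.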
